A study of Felis catus with 8 samples.

Results

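Livers of male cats (Felis catus) raised on a diet rich in trans fat and in corn syrup of high fructose content (HFCS), with no monosodium glutamate (MSG), were compared with livers of male cats raised on standard chow. The comparison was chosen by the treatment named in the labels and used 4 of the 8 arrays of the series, 2 for each diet. Trans fat made up 8.6% of the trans-fat/HFCS feed and HFCS 24%, while the control diet was chow with none of these additions named. Mothers ate the diet for 3 weeks ahead of mating and through pregnancy and nursing, their sons ate it afterwards, and livers were taken at 9 months of age in every group. No strain, genotype or litter is given in the labels, which number each array as a separate cat but leave unsaid whether RNA was pooled. Exposure before birth and exposure after weaning therefore cannot be told apart, and p-values measure only the spread between arrays. The other 4 arrays, 2 of cats on the combined trans-fat, HFCS and 1.125% MSG diet and 2 of cats on chow with 1.125% MSG, entered the estimate of spread and a test of whether the effect differed with MSG.

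Cat RNA was read on human arrays, so a probe set (a group of probes for a stretch of an exon) can read a cat transcript just where cat and human sequence are alike. A gene's level is the mean log2 intensity of its kept probe sets. Gene values correlated across genes with r = 0.954 between the trans-fat/HFCS arrays, r = 0.968 between the control arrays and r between 0.923 and 0.928 across the diets. Of 20 hepatocyte markers, 19 were measured and none passed the test. Their summed linear level was 7828 and 7339 on the trans-fat/HFCS arrays, against 7672 and 7316 on the control arrays. Of 119 skeletal muscle genes, however, 116 were measured and 25 rose in limma's test described below, which 1.46% of all genes did. Their summed level was 2852 and 2949 on the trans-fat/HFCS arrays, against 1852 and 1930 on the control arrays, and between 1860 and 1990 on the other 4. No gene stood at 0, since the lowest intensity on any array was 2.22. Muscle genes are described apart from liver genes, after them, and their part in the other differences was not tested.

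The liver turns cholesterol into bile acids, and the first enzyme of the main route, CYP7A1, sets the pace. Bile acids returning to the liver bind the nuclear receptor FXR, which raises the repressor NR0B2 (SHP), and they also release the gut hormone FGF19, which acts on hepatocytes through FGFR4 and its partner KLB. Both signals lower CYP7A1 in humans and mice. Enzymes of cholesterol and fatty acid synthesis are switched on together by the SREBP transcription factors, whereas fatty acids themselves act on the receptor PPARA, which raises genes of fat oxidation. Fructose enters hepatocytes through SLC2A2 and is trapped by ketohexokinase, KHK, which feeds carbon into fat synthesis. Cats join bile acids to taurine and make little taurine of their own.

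In limma's test 444 of 17910 genes differed between the diets at a Benjamini-Hochberg adjusted p under 0.05, which is 2.48% of the genes. Of these, 262 (1.46%) were higher and 182 (1.02%) lower on the trans-fat/HFCS diet. All 444 differed by at least 1.5-fold and 317 by at least 2-fold. The median log2 change over all genes was 0.01, and 48.5% of genes had a negative change. With the skeletal muscle list set aside, 237 higher and 181 lower genes remained. The 33 lists of liver pathways described below held 750 measured genes, of which 10 (1.33%) rose and 24 (3.20%) fell. Many calls rested on few probe sets, as 115 of the 444 had 1 kept probe set and 94 had 2. Leaving out 1 of the 4 compared arrays also cut the count, to 111 without trans-fat/HFCS array 1, 107 without trans-fat/HFCS array 2, 62 without control array 1 and 66 without control array 2.

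Bile acid synthesis was marked by 1 large change. CYP7A1 had log2 levels of 3.73 and 3.73 on the trans-fat/HFCS arrays, against 5.34 and 5.43 on the control arrays. Both trans-fat/HFCS arrays lay far below both control arrays, and the gene fell by 1.66 (SE 0.18, adjusted p = 0.0032 in limma), a 3.15-fold lower level. Its brightest probe set read 117 and 132 intensity units on the trans-fat/HFCS arrays, against 597 and 618 on the control arrays. Another probe set read 10.1 and 5.19 on the trans-fat/HFCS arrays, against 60.4 and 58.4 on the control arrays. A dim one was also lower, while the last read 5.91 and 12.1 on the trans-fat/HFCS arrays and 7.47 and 5.64 on the control arrays, which overlap. The call of CYP7A1 held with any 1 of the 4 arrays left out (log2 -1.70 to -1.61, adjusted p between 0.027 and 0.045 in limma). It was the only member called among the 14 measured enzymes of bile acid synthesis, whose median log2 change was -0.02. CYP7B1, which acts in the alternative route, had a log2 change of -0.71 (SE 0.21) and CYP8B1, which makes the cholic acid branch, one of -0.60 (SE 0.26). HSD3B7, which acts on the products of both routes, had 0.54 (SE 0.16). None of these 3 passed, with adjusted p between 0.11 and 0.26 in limma.

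Among 19 measured genes of bile acid transport and FXR signalling, KLB alone was called. Its log2 level was 4.25 and 4.45 on the trans-fat/HFCS arrays, against 5.81 and 6.11 on the control arrays, and the groups did not overlap. KLB fell by 1.61 (SE 0.22, adjusted p = 0.0094 in limma), or 3.05-fold, and 4 of its 5 kept probe sets were lower. The brightest of them read 227 and 240 intensity units on the trans-fat/HFCS arrays, against 750 and 846 on the control arrays. KLB no longer passed without either control array or without trans-fat/HFCS array 1 (adjusted p up to 0.095 in limma), and over all 4 such fits its log2 change was -1.76 to -1.46. NR0B2 stood at 7.17 and 7.21 on the trans-fat/HFCS arrays, against 6.56 and 6.38 on the control arrays, again without overlap, yet missed the threshold (log2 change 0.72, SE 0.18, adjusted p = 0.072 in limma). The bile acid exporter subunit OSTalpha had a log2 change of 0.65 (adjusted p = 0.086 in limma) and the exporter ABCC4 one of -0.41 (adjusted p = 0.24). FGFR4, the receptor that KLB serves, differed by -0.03 (SE 0.17), and the FXR gene NR1H4 by -0.30 (SE 0.18). The list had a median of -0.19, and 10 of its 19 genes were lower on both trans-fat/HFCS arrays than on both control arrays, where 24.9% of all genes were.

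**Figure D1:**
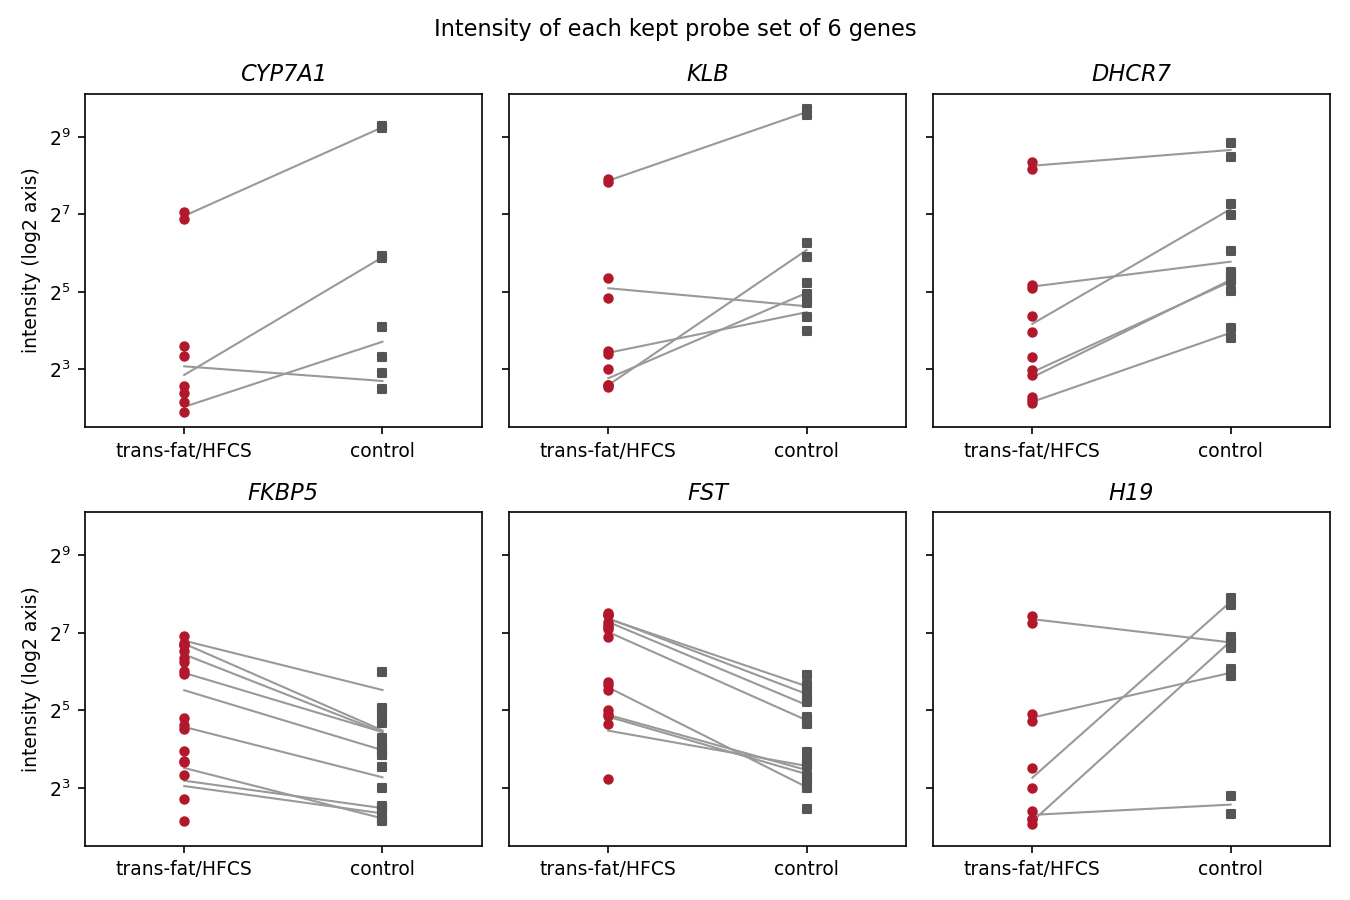
Linear intensity (log2 axis) of every kept probe set of 6 genes, 1 point per array and a line joining the group means of each probe set, with the 2 trans-fat/HFCS arrays left of the 2 control arrays. In CYP7A1, KLB and DHCR7 most lines rise towards control, in FKBP5 and FST all fall towards control, and in H19 the brightest probe set runs against the others.

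Most enzymes that make cholesterol had negative changes on the trans-fat/HFCS diet. All 10 measured enzymes of the late sterol steps had a negative change and 9 were lower on both trans-fat/HFCS arrays than on both control arrays, where 24.9% of all genes were. The median log2 change was -0.56, and 3 fell, where 1.02% of all genes did. DHCR7, which reduces the last double bond on the way to cholesterol, stood at 4.36 and 4.13 on the trans-fat/HFCS arrays, against 6.02 and 6.01 on the control arrays. That is a 3.42-fold lower level (log2 change -1.77, SE 0.18, adjusted p = 0.0021 in limma), with 6 of 6 probe sets lower by between 0.41 and 2.96 on the log2 scale. The brightest of them moved least and did not pass by itself. The sterol isomerase EBP had log2 levels of 8.53 and 8.46 on the trans-fat/HFCS arrays, against 9.77 and 9.70 on the control arrays. EBP fell by 1.24 (SE 0.17, adjusted p = 0.0094 in limma), and its 4 probe sets were each lower by between 1.01 and 1.43. The lanosterol demethylase CYP51A1 was close to the threshold. Its levels were 3.48 and 4.03 on the trans-fat/HFCS arrays and 5.14 and 4.64 on the control arrays, which gave a decrease of 1.14 (SE 0.24, adjusted p = 0.049 in limma) carried by 1 of 2 probe sets. The lanosterol synthase LSS had a change of -0.76 (SE 0.18, adjusted p = 0.060 in limma) and did not pass.

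Of 8 measured enzymes of the mevalonate steps 1 fell, and the median log2 change was -0.26. ACAT2, the cytosolic thiolase that starts the pathway, stood at 3.78 and 4.09 on the trans-fat/HFCS arrays, against 6.11 and 5.81 on the control arrays. It fell by 2.03 (SE 0.30, adjusted p = 0.012 in limma), 4.08-fold, with all 6 probe sets lower. The isomerase IDI1 had a change of -0.96 (SE 0.24, adjusted p = 0.072 in limma), while the synthase HMGCS1 differed by -0.22 (SE 0.18) and MVD and MVK by -0.34 and -0.31. None of 16 measured genes of sterol control, uptake and export was called. The largest changes by p were those of the intestinal and biliary sterol carrier NPC1L1 (-0.70, adjusted p = 0.092 in limma) and of SREBF2, which encodes the SREBP that drives sterol synthesis (-0.61, adjusted p = 0.11). Whichever 1 of the 4 arrays was left out, DHCR7 kept its call (adjusted p between 0.011 and 0.032 in limma). EBP (between 0.053 and 0.085), ACAT2 (between 0.055 and 0.11) and CYP51A1 (between 0.069 and 0.27) did not pass whichever of them was left out, at log2 changes of -1.28 to -1.20, -2.18 to -1.87 and -1.41 to -0.86.

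Fatty acid synthesis genes had mostly negative changes, although few passed. Of 17 measured, 13 had a negative change, 12 were lower on both trans-fat/HFCS arrays than on both control arrays (24.9% of all genes), and the median log2 change was -0.51. ACLY, which makes the cytosolic acetyl-CoA that both fat and sterol synthesis use, stood at 5.78 and 5.41 on the trans-fat/HFCS arrays, against 6.80 and 6.78 on the control arrays. ACLY fell by 1.19 (SE 0.19, adjusted p = 0.016 in limma), with 19 of 22 probe sets lower. ACACA, the acetyl-CoA carboxylase that commits carbon to fatty acids, had levels of 6.37 and 6.42 on the trans-fat/HFCS arrays, against 7.32 and 7.16 on the control arrays. It fell by 0.84 (SE 0.16, adjusted p = 0.035 in limma), and 39 of its 42 probe sets were lower. The malic enzyme ME1 (-0.82, SE 0.18, adjusted p = 0.052 in limma) and the fatty acid synthase FASN (-0.78, SE 0.17, adjusted p = 0.054) did not pass. FASN nevertheless stood at 4.10 and 4.16 on the trans-fat/HFCS arrays, against 4.90 and 4.92 on the control arrays, which do not overlap. SREBF1, which encodes the SREBP of fatty acid synthesis, and the desaturase SCD had changes of -0.79 and -0.84 (adjusted p = 0.078 and 0.11 in limma). MLXIPL, which encodes the carbohydrate-sensing factor ChREBP, had 0.49 (SE 0.23). ACLY kept its call without trans-fat/HFCS array 1 alone of the 4 arrays (adjusted p up to 0.13 in limma), and ACACA lost it whichever of them was left out (log2 -0.92 to -0.76, adjusted p between 0.12 and 0.23).

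Among 16 measured genes of triglyceride and polyunsaturated fatty acid synthesis, ELOVL2 was called. This elongase builds the very long polyunsaturated fatty acids, and its levels were 3.85 and 2.90 on the trans-fat/HFCS arrays, against 5.18 and 5.14 on the control arrays. The 2 trans-fat/HFCS arrays differed from each other by more than the control arrays did, but both were lower (log2 change -1.79, SE 0.29, adjusted p = 0.018 in limma). Without either control array or trans-fat/HFCS array 2 it did not pass (adjusted p up to 0.13 in limma), and over all 4 fits with an array left out its log2 change was -2.26 to -1.31. The acyltransferase GPAM and the phosphatidate phosphatase LPIN1, which skeletal muscle also expresses, had changes of -0.71 and -0.59 (adjusted p = 0.13 and 0.098 in limma). The list's median was 0.10. Outside the lists, and chosen after their values were seen, the acyl-CoA synthetases ACSL4 and ACSL3, which activate long-chain fatty acids, were also lower. ACSL4 stood at 7.33 and 7.33 on the trans-fat/HFCS arrays, against 8.74 and 8.64 on the control arrays. It fell by 1.37 (SE 0.16, adjusted p = 0.0043 in limma) with 14 of 15 probe sets lower, and it did not pass without control array 1 (adjusted p = 0.060). ACSL3 fell by 0.87 (SE 0.17, adjusted p = 0.035 in limma), and the call ended whichever 1 of the 4 arrays was left out (adjusted p between 0.10 and 0.22).

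The pentose phosphate pathway supplies reducing power for these syntheses. None of its 7 measured genes was called, at a median log2 change of -0.50. PGD, an oxidative enzyme of the pathway, had levels of 4.48 and 4.94 on the trans-fat/HFCS arrays and 5.88 and 5.64 on the control arrays (log2 change -1.05, SE 0.30, adjusted p = 0.11 in limma).

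**Figure D2:**
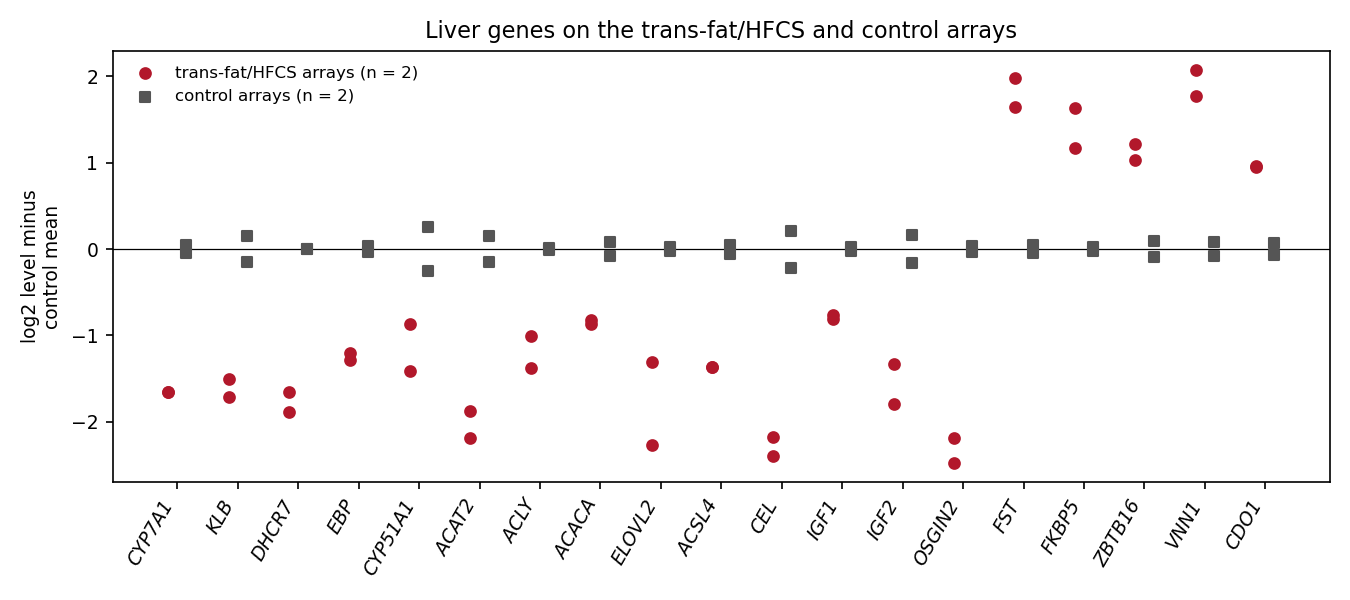
Log2 level minus the control mean for 19 called liver genes, with circles for the 2 trans-fat/HFCS arrays and squares for the 2 control arrays of each gene. In each of the 19 genes both circles lie on the same side of both squares, with 14 genes below the control mean and 5 above it.

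Lipase, transport and oxidation genes gave few calls. CEL is a bile salt-dependent lipase made mainly in pancreas and also in liver. Its trans-fat/HFCS levels, near the lower end of the scale, were 2.75 and 2.53, against 4.71 and 5.14 on the control arrays. It fell by 2.29 (SE 0.21, adjusted p = 0.0013 in limma), 4.88-fold, with all 4 probe sets lower, and passed with any 1 of the 4 arrays left out (adjusted p between 0.0095 and 0.023). The other 9 measured markers of pancreatic acinar cells were not called, and their summed level with CEL was 231 and 278 on the trans-fat/HFCS arrays, against 232 and 227 on the control arrays. CEL was the only call among 16 genes of fatty acid uptake and lipases, where the hepatic lipase LIPC had a change of -0.61 (adjusted p = 0.11 in limma). Of 20 measured PPARA targets, 7 of them also expressed in muscle, VNN1 was the only one called. VNN1, a pantetheinase, had levels of 5.66 and 5.37 on the trans-fat/HFCS arrays, against 3.67 and 3.51 on the control arrays. It rose by 1.92 (SE 0.35, adjusted p = 0.028 in limma), or 3.79-fold, on 2 probe sets, and the call ended whichever 1 of the 4 arrays was left out (log2 1.78 to 2.07, adjusted p between 0.091 and 0.16). It also ended without the filter on dim probe sets, at a log2 change of 0.52. The lipase inhibitor ANGPTL4, at 0.65 on 1 probe set, the fatty acid binding protein FABP1, at -0.64, and the omega-hydroxylase CYP4A22, at 0.35, did not pass (adjusted p between 0.10 and 0.37 in limma). No call was made among 18 genes of beta oxidation (median 0.12), 17 of lipid droplets (0.01) or 22 of apolipoproteins and lipoprotein assembly (0.14). The droplet protein CIDEC (0.63), the apolipoproteins APOD (0.85) and APOA5 (0.66) and the structural apolipoprotein APOB (-0.52) had the smallest p in the droplet and apolipoprotein lists.

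Few carbohydrate genes were called, and their changes went both ways. None of 7 measured genes of fructose handling was called, at a median log2 change of 0.13. Of the 7, 4 were higher and 2 lower on both trans-fat/HFCS arrays than on both control arrays (26.7% and 24.9% of all genes). The fructose transporter SLC2A5 had a change of -0.64 (SE 0.19), the hepatic hexose transporter SLC2A2 of 0.43 (SE 0.17) and KHK of -0.32 (SE 0.17), with adjusted p between 0.12 and 0.35 in limma. In glycolysis 1 of 27 measured genes rose and 2 fell, where 1.46% of all genes rose and 1.02% fell. By the same comparison of arrays, 9 of the 27 were higher and 9 lower. PFKFB1, which makes the fructose bisphosphate signal that drives glycolysis, stood at 4.97 and 4.90 on the trans-fat/HFCS arrays, against 5.93 and 5.77 on the control arrays (log2 change -0.91, adjusted p = 0.040 in limma, all 11 probe sets lower). The aldolase ALDOC fell by 0.84 (adjusted p = 0.040 in limma), although its brightest probe set had -0.01 (adjusted p = 0.97), while the aldolase ALDOA rose by 0.99 (adjusted p = 0.026). All 3 genes are also expressed in skeletal muscle, whose markers were high on the trans-fat/HFCS arrays, and that part in these values was not tested. Whichever 1 of the 4 arrays was left out, none of the 3 passed (adjusted p between 0.073 and 0.26). None of 20 genes of gluconeogenesis and glycogen was called, and the glycogen primer GYG2 (-0.89) and the pyruvate carboxylase PC (0.65) had an adjusted p of 0.085 each in limma.

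Both insulin-like growth factor genes fell. IGF1, which the liver secretes in response to growth hormone, stood at 8.10 and 8.06 on the trans-fat/HFCS arrays, against 8.89 and 8.84 on the control arrays. It fell by 0.79 (SE 0.16, adjusted p = 0.038 in limma), 1.72-fold, on all 8 probe sets. The fetal growth factor IGF2 had levels of 4.17 and 3.70 on the trans-fat/HFCS arrays, against 5.33 and 5.66 on the control arrays, and fell by 1.56 (SE 0.26, adjusted p = 0.019 in limma). Its brighter probe set read 55.9 and 43.0 intensity units on the trans-fat/HFCS arrays, against 157 and 130 on the control arrays. Neither passed whichever 1 of the 4 arrays was left out, at log2 changes of -0.81 to -0.76 for IGF1 and -1.80 to -1.33 for IGF2 (adjusted p between 0.055 and 0.22 in limma). These were the 2 calls among 24 genes of insulin and IGF signalling, which had a median of -0.07, where 1.02% of all genes fell. The binding protein IGFBP5, also expressed in muscle, had a change of 0.91 (adjusted p = 0.066 in limma).

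H19, an imprinted non-coding RNA gene that neighbours IGF2 in mammals, stood at 4.03 and 3.91 on the trans-fat/HFCS arrays, against 5.99 and 5.96 on the control arrays. Its mean fell by 2.00 (SE 0.17, adjusted p = 0.0011 in limma), but the 5 probe sets did not move alike. The probe set with the largest drop read 4.20 and 4.61 intensity units on the trans-fat/HFCS arrays, against 109 and 111 on the control arrays. Another read 11.4 and 8.04 on the trans-fat/HFCS arrays, against 238 and 209 on the control arrays. The brightest probe set read 174 and 153 on the trans-fat/HFCS arrays, against 97.1 and 120 on the control arrays, so by that probe set alone H19 was higher (log2 change 0.60). The call on the mean held whichever 1 of the 4 arrays was left out (adjusted p between 0.0085 and 0.022 in limma).

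FST, which encodes follistatin, a secreted inhibitor of activins and myostatin, was among the clearest increases. Its levels were 5.94 and 6.27 on the trans-fat/HFCS arrays, against 4.34 and 4.24 on the control arrays. FST rose by 1.81 (SE 0.17, adjusted p = 0.0015 in limma), 3.51-fold, with all 8 probe sets higher by between 0.91 and 2.57 on the log2 scale. The call held whichever 1 of the 4 arrays was left out (adjusted p between 0.0070 and 0.029 in limma).

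Most genes that glucocorticoid hormones raise had positive changes. Of 18 measured, 14 had a positive change and 13 were higher on both trans-fat/HFCS arrays than on both control arrays, where 26.7% of all genes were. The median log2 change was 0.28, and 2 rose, where 1.46% of all genes did. FKBP5, a co-chaperone that dampens the glucocorticoid receptor, stood at 5.31 and 4.85 on the trans-fat/HFCS arrays, against 3.70 and 3.66 on the control arrays. It rose by 1.40 (SE 0.20, adjusted p = 0.012 in limma), 2.64-fold, with all 9 probe sets higher. The transcriptional repressor ZBTB16 had levels of 5.34 and 5.16 on the trans-fat/HFCS arrays, against 4.22 and 4.04 on the control arrays, and rose by 1.12 (SE 0.17, adjusted p = 0.015 in limma) on all 8 probe sets. CRISPLD2 (0.77, adjusted p = 0.072 in limma) and the metallothionein MT1X (0.58, adjusted p = 0.11) did not pass. FKBP5 kept its call without trans-fat/HFCS array 2 alone of the 4 arrays (adjusted p up to 0.097 in limma, log2 1.17 to 1.63), and ZBTB16 did not pass whichever of them was left out (adjusted p between 0.060 and 0.11, log2 1.03 to 1.21).

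In the circadian clock list 1 of 18 measured genes rose, at a median of -0.04. NPAS2, a partner of ARNTL in the clock's activating complex, had a change of 0.80 (SE 0.17, adjusted p = 0.048 in limma), while its relative CLOCK had -0.56 and the clock output factor HLF 0.76 (adjusted p = 0.16 and 0.056). The time of day of sampling is not given in the labels used here. The immediate early list, of genes transcribed soon after a stimulus, gave 2 decreases of 22, where 1.02% of all genes fell. Its median was -0.16. FOSB stood at 3.15 and 3.75 on the trans-fat/HFCS arrays, against 5.01 and 5.39 on the control arrays (log2 change -1.75, SE 0.24, adjusted p = 0.010 in limma). The mRNA decay factor ZFP36, on 1 probe set, fell by 1.07 (SE 0.17, adjusted p = 0.016 in limma), and FOS had -0.64 (adjusted p = 0.12). FOSB kept its call without trans-fat/HFCS array 2 alone of the 4 arrays (adjusted p up to 0.095 in limma, log2 -2.05 to -1.45). Neither NPAS2 nor ZFP36 passed whichever 1 of the 4 was left out, at log2 changes of 0.68 to 0.92 and -1.20 to -0.94 (adjusted p between 0.055 and 0.25).

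Taurine and glutamate genes moved in both directions. CDO1, the dioxygenase that starts the making of taurine from cysteine, stood at 7.14 and 7.13 on the trans-fat/HFCS arrays, against 6.12 and 6.25 on the control arrays. It rose by 0.95 (SE 0.19, adjusted p = 0.037 in limma) on all 6 probe sets. GADL1, a decarboxylase related to CSAD, had levels of 2.05 and 2.45 on the trans-fat/HFCS arrays, against 4.15 and 4.39 on the control arrays, and fell by 2.02 (SE 0.29, adjusted p = 0.011 in limma). Its 2 probe sets differed in size, at -3.40 and -0.65, and its trans-fat/HFCS levels were near the lower end of the scale. CSAD itself, the decarboxylase of the taurine route, had 0.47 (SE 0.18), and the taurine transporter SLC6A6, also expressed in muscle, had -0.71 (SE 0.16, adjusted p = 0.056 in limma). The 17 measured genes had a median of -0.06. Without 1 of the 4 arrays CDO1 never passed (log2 0.89 to 1.02, adjusted p between 0.13 and 0.23 in limma), and GADL1 passed only without trans-fat/HFCS array 2 (log2 -2.23 to -1.82, adjusted p up to 0.097). None of 43 genes of the urea cycle and amino acid breakdown was called, at a median of 0.01. The peroxisomal transaminase AGXT had the smallest p there (-0.73, adjusted p = 0.060 in limma).

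Drug and stress defence lists had a single decrease each, where 1.02% of all genes fell. In phase I metabolism 1 of 43 measured genes fell, CYP26A1, which breaks down retinoic acid. It stood at 2.98 and 2.95 on the trans-fat/HFCS arrays, against 4.35 and 4.29 on the control arrays (log2 change -1.35, SE 0.24, adjusted p = 0.025 in limma). In phase II metabolism 1 of 32 fell, the glutathione transferase GSTA4, which clears products of lipid peroxidation. Its levels were 8.29 and 8.70 on the trans-fat/HFCS arrays, against 9.59 and 9.54 on the control arrays (log2 change -1.07, SE 0.21, adjusted p = 0.034 in limma), with all 8 probe sets lower. In the NRF2 and antioxidant list 1 of 27 fell, OSGIN2, named for its likeness to an oxidative stress-induced growth inhibitor. OSGIN2 stood at 4.14 and 4.42 on the trans-fat/HFCS arrays, against 6.65 and 6.57 on the control arrays. The decrease was 5.03-fold (log2 change -2.33, SE 0.18, adjusted p = 0.00072 in limma) on all 5 probe sets, and it held whichever 1 of the 4 arrays was left out (adjusted p between 0.0046 and 0.013). CYP26A1 and GSTA4 did not pass whichever of them was left out, at log2 changes of -1.38 to -1.32 and -1.27 to -0.87 (adjusted p between 0.067 and 0.19 in limma). The median changes of the 3 lists were 0.06, 0.01 and 0.04.

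ALAS1, the first enzyme of haem synthesis in liver, was chosen after its values were seen. It stood at 8.20 and 8.47 on the trans-fat/HFCS arrays, against 7.43 and 7.23 on the control arrays, and its brightest probe set read 5694 and 5566 intensity units on the trans-fat/HFCS arrays and 2805 and 2757 on the control arrays. ALAS1 rose by 1.01 (SE 0.18, adjusted p = 0.023 in limma) on all 9 probe sets, and no longer passed whichever 1 of the 4 arrays was left out (log2 0.87 to 1.14, adjusted p between 0.063 and 0.16). Of 72 genes of oxidative phosphorylation, which include haem proteins of the respiratory chain, 1 rose and 1 fell, at a median of -0.01. These were ATP5I, a subunit of ATP synthase (1.01, adjusted p = 0.016 in limma), and NDUFA11, an accessory subunit of complex I (-1.53, adjusted p = 0.0094, on 1 of 2 probe sets). All 72 are also expressed in muscle. NDUFA11 did not pass without either control array (adjusted p up to 0.094 in limma), and ATP5I failed whichever 1 of the 4 arrays was left out (between 0.076 and 0.13), with log2 changes over all 4 such fits of -1.81 to -1.25 and 0.98 to 1.04. By its brightest probe set ATP5I had 0.26. The lists of the unfolded protein response (24 genes, median -0.16) and heat shock (24 genes, median -0.05) had 1 call each, SDF2L1 at -0.86 and BAG5 at 2.02 (adjusted p = 0.038 and 0.016 in limma). Both calls ended whichever 1 of the 4 arrays was left out (log2 -0.93 to -0.79 and 1.88 to 2.15, adjusted p between 0.064 and 0.21). By its brightest probe set BAG5 had 0.25, and with a pseudocount of 16 SDF2L1 had -0.32, neither of which passed.

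Immune genes showed single changes without a shared direction. None of 29 acute-phase genes was called (median -0.09), nor any of 34 of complement and coagulation (0.08). Of these 34, 15 were higher and 4 lower on both trans-fat/HFCS arrays than on both control arrays (26.7% and 24.9% of all genes). HP, the haemoglobin-binding haptoglobin, had levels of 6.14 and 5.44 on the trans-fat/HFCS arrays and 6.67 and 6.86 on the control arrays (log2 change -0.97, SE 0.30, adjusted p = 0.14 in limma). The groups did not overlap, but the trans-fat/HFCS arrays differed more from each other than the control arrays did. Among 30 genes of inflammatory signalling 1 rose and 2 fell, at a median of 0.03, where 1.46% of all genes rose and 1.02% fell. The cytokine IL19 stood at 2.80 and 2.37 on the trans-fat/HFCS arrays, against 5.00 and 4.57 on the control arrays (log2 change -2.21, SE 0.27, adjusted p = 0.0062 in limma), levels near the lower end of the scale on the trans-fat/HFCS arrays. TNFAIP3, which restrains NF-kB, fell by 0.85 (adjusted p = 0.039 in limma) with 4 of 6 probe sets lower, and the cytokine signal suppressor SOCS1 rose by 0.94 on 1 probe set (adjusted p = 0.039). IL19 did not pass without control array 1 (adjusted p = 0.062 in limma), and neither TNFAIP3 (log2 -0.93 to -0.77) nor SOCS1 (0.76 to 1.12) passed whichever 1 of the 4 arrays was left out (adjusted p between 0.074 and 0.22). In the interferon list MX2 alone of 27 rose (1.15, adjusted p = 0.028 in limma), at a list median of 0.13. Its brightest probe set ran the other way, at -0.30, and the call ended whichever 1 of the 4 arrays was left out (log2 0.96 to 1.35, adjusted p between 0.073 and 0.20 in limma). None of 27 cell cycle genes was called, at a median of 0.09.

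Few markers of blood and immune cells were called, and in both directions, where 1.46% of all genes rose and 1.02% fell. Of 8 measured neutrophil markers 2 fell, PADI4, a peptidylarginine deiminase (-1.78, adjusted p = 0.016 in limma), and the calcium-binding protein S100A12 (-2.76 on 1 probe set, adjusted p = 0.0090). S100A12 stood at 2.14 and 2.01 on the trans-fat/HFCS arrays, near the lower end of the scale, against 5.09 and 4.58 on the control arrays. The summed neutrophil level, which includes these 2 called genes, was 74.7 and 65.8 on the trans-fat/HFCS arrays, against 128 and 112 on the control arrays. The list median was -0.23, and of the 6 markers not called 3 had a positive change, among them MMP8 with 0.26. S100A9 had -0.47 and ELANE -0.31. Neither call held throughout when 1 of the 4 arrays was left out: PADI4 passed only without trans-fat/HFCS array 1 and S100A12 only without control array 2 (adjusted p up to 0.12 and 0.076 in limma). Of 16 macrophage markers 1 rose, the lysosomal protein CD68 (1.31, adjusted p = 0.015 in limma), although its brightest probe set had -0.32. FCER1G, an Fc receptor chain, had a change of similar size the other way, with levels of 2.24 and 2.67 on the trans-fat/HFCS arrays and 3.82 and 3.67 on the control arrays (-1.29, adjusted p = 0.056 in limma), and the list median was 0.18. CD68 passed without trans-fat/HFCS array 1 alone of the 4 arrays (log2 1.10 to 1.52, adjusted p up to 0.12 in limma). The summed macrophage level was 413 and 428 on the trans-fat/HFCS arrays, against 396 and 400 on the control arrays. None of 30 stellate cell and matrix markers was called (median -0.13), none of 15 lymphocyte markers (0.10), none of 12 endothelial markers (0.03) and none of 6 bile duct markers (-0.14). Of the 30 stellate cell and matrix markers, 14 were lower and 3 higher on both trans-fat/HFCS arrays than on both control arrays. Among all genes 24.9% were lower and 26.7% higher in this way. Of 7 red cell markers CA1, a carbonic anhydrase, rose (1.03, adjusted p = 0.024 in limma), a call that ended whichever 1 of the 4 arrays was left out (adjusted p between 0.060 and 0.16, log2 0.88 to 1.18). The summed red cell level was 141 and 131 on the trans-fat/HFCS arrays, against 114 and 116 on the control arrays. In bulk liver, fewer cells of a type and less RNA per cell cannot be told apart.

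**Figure D3:**
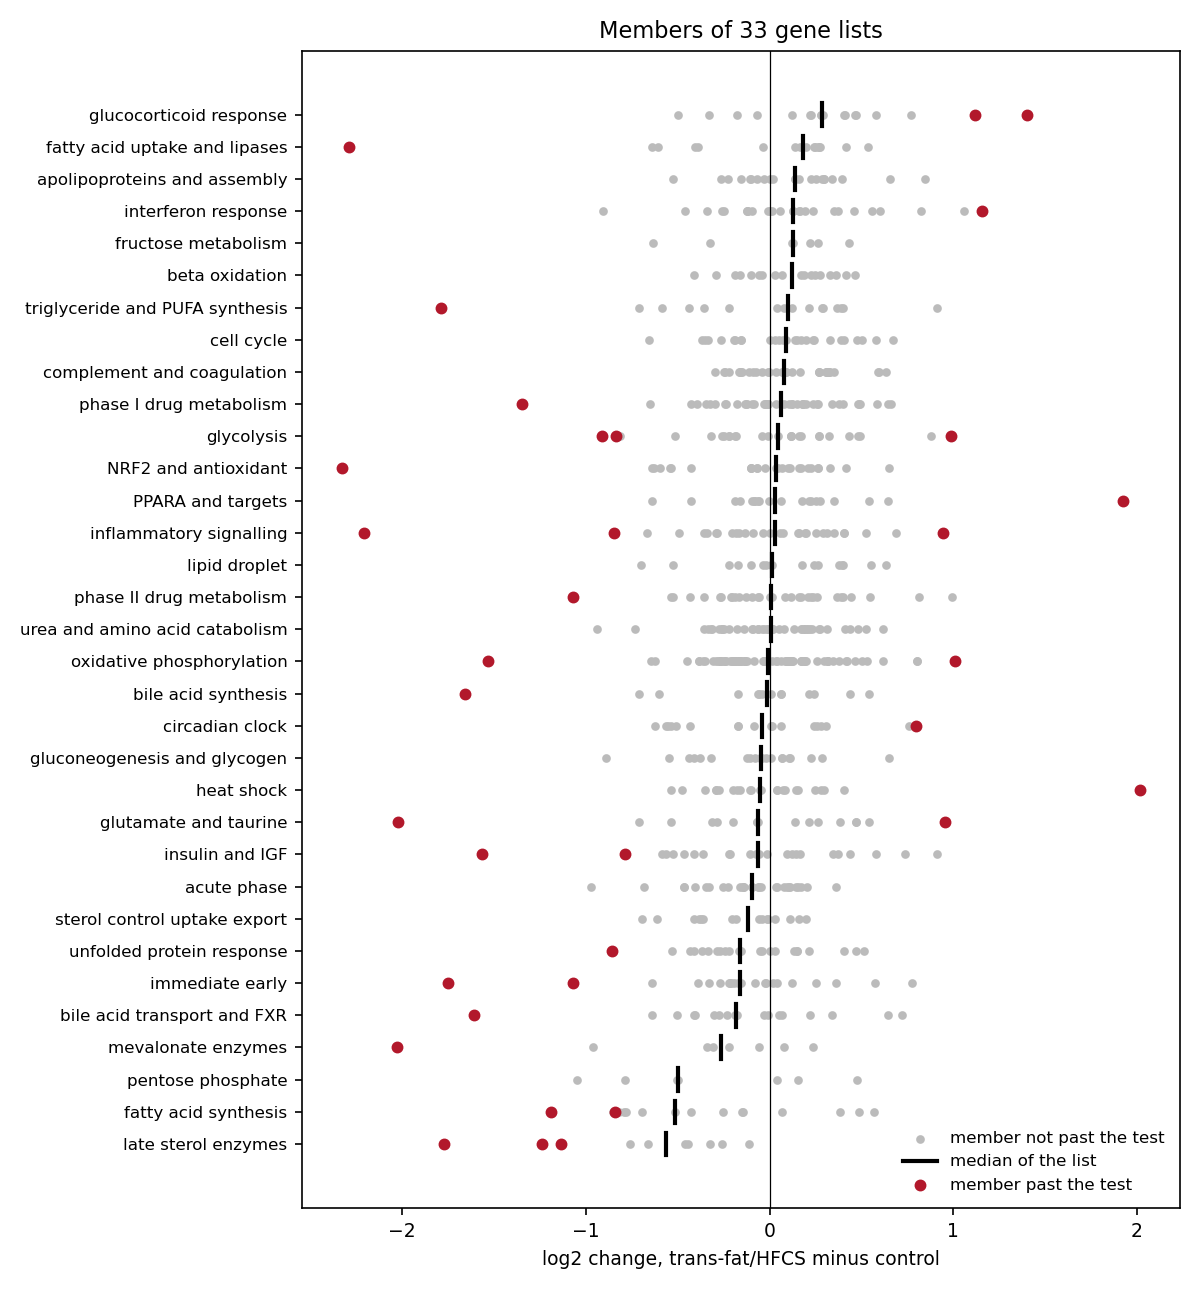
Log2 change (trans-fat/HFCS minus control) of the members of 33 gene lists, ordered by the list median (bar), with called genes in red and others in grey. The late sterol enzymes have the lowest median, -0.56, and glucocorticoid response genes the highest, 0.28, while most lists centre near 0.

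The naming rule took the 12 largest increases and 12 largest decreases outside the muscle list that had at least 2 kept probe sets and a median probe set change of at least 0.5 in the same direction. In 21 of these 24 genes all kept probe sets moved one way, but 13 of the 24 had 2 probe sets and 5 had at least 5. The largest increase was that of ZNF385D, a zinc finger gene, with levels of 6.40 and 6.56 on the trans-fat/HFCS arrays, against 3.18 and 3.37 on the control arrays (log2 change 3.20, SE 0.22, adjusted p = 0.00050 in limma). Its 2 probe sets moved by 1.32 and 5.08, the brighter one by the smaller amount, which did not pass alone, and the call held whichever 1 of the 4 arrays was left out (adjusted p up to 0.011). The other increases besides BAG5, VNN1 and FST were those of the nucleotidase NT5C (2.17), the oocyte gene ZAR1 (1.95), ZMAT5 (1.88), NPIPL2 (1.86), TDRD5 (1.84), ZBTB6 (1.72), RPRM (1.69) and the glutamate receptor subunit GRIA2 (1.63). Besides OSGIN2, CEL, IL19, ACAT2, GADL1, H19, ELOVL2, PADI4 and DHCR7, the decreases were those of the histone gene HIST1H3H (-2.01), Magmas, a subunit of the mitochondrial import motor (-1.78), and the zinc finger gene ZNF90 (-1.76). Several of these values were far smaller in other settings and did not pass there. By the brightest probe set ZAR1 had 0.17, ZBTB6 0.29, RPRM 0.52 and ZNF90 0.17. With dim probe sets kept TDRD5 had 0.18, NPIPL2 0.37, GRIA2 0.42 and ZMAT5 0.46. Adjusted p for these 24 genes lay between 0.00050 for ZNF385D and 0.039 for GRIA2 in limma. The kept probe sets of HIST1H3H hold identical values, as do those of NPIPL2, so each counts as 1 measurement, and genes such as these, which have close copies in the genome, may share signal with them. Of the 24 calls, 13 held without trans-fat/HFCS array 1, 13 without trans-fat/HFCS array 2, 9 without control array 1 and 11 without control array 2, and all 24 kept their direction.

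Genes read by many probe sets were also taken apart. With at least 5 kept probe sets, at least 80% of them in the gene's direction, and the muscle list apart, 26 genes rose and 50 fell, a selection made after the values were seen. The 26 still hold MYH6, a cardiac myosin gene that the muscle list lacked. Besides genes named above, those that fell included DAPK1, a death-associated kinase (-1.16, 15 of 18 probe sets lower), the choline transporter SLC44A1 (-1.11, all 13 lower), NFKBIZ, a nuclear regulator of NF-kB (-0.98, 12 of 13), and the antimicrobial peptide LEAP2 (-1.03, all 5). Those that rose included AGPAT9, a glycerol phosphate acyltransferase (0.89, 9 of 10 higher), and the retinol-binding protein RBP2 (1.04, 4 of 5). Adjusted p for these 6 genes lay between 0.0090 and 0.039 in limma. None of the 6 passed whichever 1 of the 4 arrays was left out (adjusted p between 0.055 and 0.20 in limma). Over the 9535 genes with at least 5 kept probe sets taken alone, a choice made after seeing the data, 313 were called, 49.5% of them higher. Some calls also rested on how the probe sets of a gene were joined. Read by the brightest probe set alone, DHCR7 had a log2 change of -0.41, EBP -1.01, CEL -2.44, ACACA -0.66, IGF1 -0.34, FKBP5 1.27, ZBTB16 0.19, CDO1 0.59 and IL19 -1.71, all short of the threshold. With dim probe sets kept, FOSB had -0.42, ZFP36 -0.44, NPAS2 0.40, CYP51A1 -0.44, S100A12 -0.50, GADL1 -0.38, PADI4 -0.28, CYP26A1 -0.53 and GSTA4 -0.60, again short of it. CYP7A1, KLB, FST and OSGIN2 passed under both of these settings, CYP7A1 with log2 changes of -2.29 by the brightest probe set and -0.94 with dim probe sets kept. Read by the median of probe sets, ACAT2 had -2.69, ACLY -1.57, ACSL4 -1.20, ELOVL2 -1.42 and FKBP5 1.49, all short of the threshold. So were IGF2 (-1.56), GSTA4 (-0.53) and CA1 (0.27). Of the 76 genes with many probe sets, 15 kept their call by the median, 25 by the brightest probe set and 57 with dim probe sets kept.

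Skeletal muscle genes were among the largest increases. ACTA1, the actin of skeletal muscle, stood at 7.57 and 7.60 on the trans-fat/HFCS arrays, against 4.71 and 4.74 on the control arrays. It rose by 2.86 (SE 0.17, adjusted p = 0.00014 in limma), or 7.24-fold. The fast myosin light chain MYL1 had levels of 6.45 and 6.49 on the trans-fat/HFCS arrays, against 3.30 and 3.10 on the control arrays (log2 change 3.26, SE 0.18, adjusted p = 0.00014 in limma). The fast myosin heavy chain MYH1 rose by 3.11, the calcium pump regulator SLN by 2.88, the tropomyosin TPM2 by 2.51 and the myosin-binding protein MYBPC1 by 2.27, with adjusted p between 0.00010 and 0.0013 in limma. Both trans-fat/HFCS arrays were raised alike, and these 6 calls held whichever 1 of the 8 arrays was left out. By the brightest probe set alone TPM2 had 0.22 and MYBPC1 -0.0023, which did not pass. Of the 116 measured muscle genes 63 were higher on both trans-fat/HFCS arrays than on both control arrays (26.7% of all genes), 25 rose and 1 fell, ART1 (-1.28, adjusted p = 0.016 in limma). The median muscle gene had a log2 change of 0.27. The cardiac myosin MYH6, which the list lacked and which was noticed afterwards, also rose, by 1.42 (adjusted p = 0.0094 in limma). CKB, the brain-type creatine kinase and not a muscle marker, was noticed afterwards as well and rose by 0.93 (adjusted p = 0.039 in limma). MYH6 kept its call without control array 1 alone of the 4 arrays (log2 1.24 to 1.61). CKB lost its call whichever was left out (log2 0.74 to 1.12). None of 10 smooth muscle markers was called (median 0.40), but 8 were higher on both trans-fat/HFCS arrays than on both control arrays. Their summed level was 463 and 398 on the trans-fat/HFCS arrays, against 356 and 337 on the control arrays. None of 7 adipocyte markers was called (median 0.46), and 4 were likewise higher on both, where 26.7% of all genes were. The summed adipocyte level was 282 and 235 on the trans-fat/HFCS arrays, against 211 and 223 on the control arrays. With the muscle list left out of the fit, 391 genes were called, and all 24 named liver genes kept their calls. Leaving these rows out does not alter the log2 change of any other gene. The part of muscle RNA in those 24 calls was therefore not tested.

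**Figure D4:**
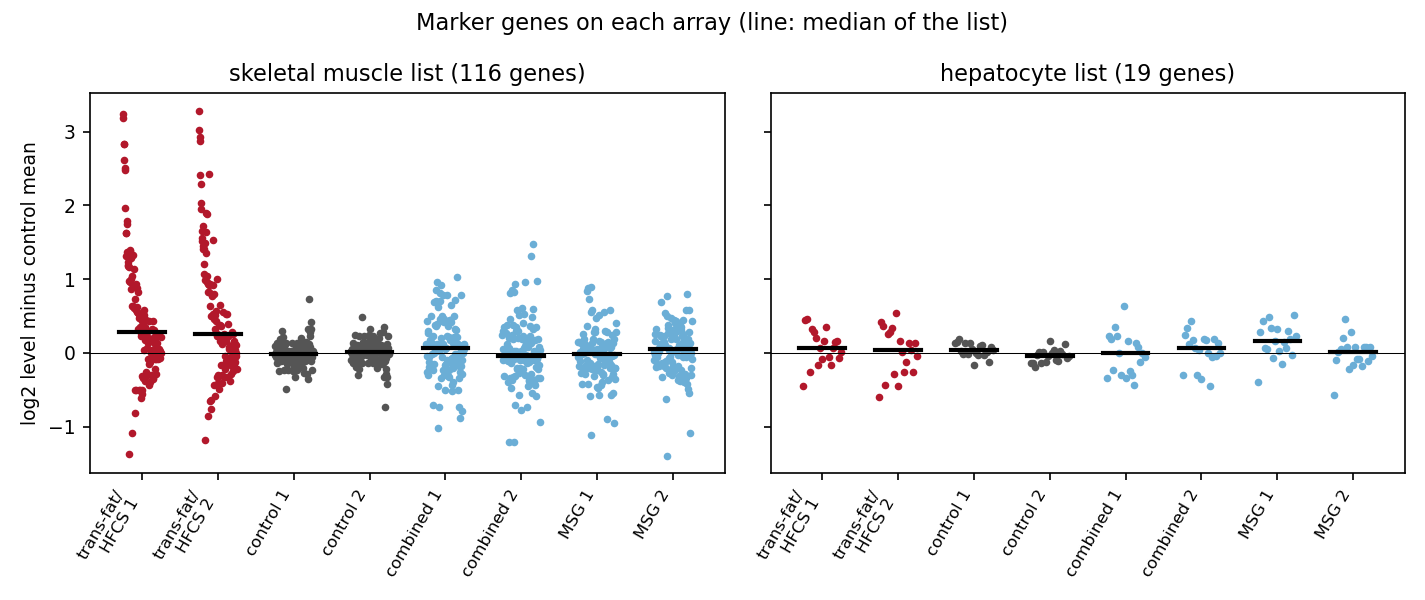
Log2 level minus the control mean of 116 skeletal muscle genes (left) and 19 hepatocyte markers (right), 1 point per gene and array, with the list median as a bar. Many muscle genes lie 1 to 3 above the control mean on both trans-fat/HFCS arrays and few do on the other 6, while hepatocyte markers stay within 1 of that mean on every array.

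Whether the trans-fat/HFCS effect was the same in cats that also ate MSG was tested as a difference between effects. The effect without MSG was set against the combined diet minus MSG, which uses the other 4 arrays. In limma 27 genes (0.151%) had a different effect at a Benjamini-Hochberg adjusted p under 0.05, 16 more positive without MSG and 11 more negative, and 8 of the 27 were muscle genes. CYP7A1 did not differ past the threshold, with a change of -1.66 without MSG and -1.48 with it (adjusted p = 0.88). The same held for FKBP5 (1.40 without MSG and 1.86 with it), DHCR7 (-1.77 and -1.23), KLB (-1.61 and -1.38), ACLY (-1.19 and -0.69) and VNN1 (1.92 and 1.68), with adjusted p between 0.58 and 0.92 in limma. For ACACA the change was -0.84 without MSG and 0.15 with it, for GSTA4 -1.07 and -0.15 and for CDO1 0.95 and 0.05. These differences also missed the threshold (adjusted p between 0.25 and 0.41 in limma), which does not show equal effects. List medians were -0.51 without MSG and -0.18 with it for fatty acid synthesis and -0.26 and -0.02 for mevalonate enzymes. They were -0.56 and -0.46 for late sterol enzymes and 0.28 and -0.03 for glucocorticoid response genes. FST and OSGIN2 did differ. FST had a change of 1.81 without MSG and -0.53 with it, and OSGIN2 one of -2.33 without MSG and -0.04 with it (adjusted p = 0.013 and 0.016 in limma). Both differences missed the threshold without either control array or either MSG array, and that of OSGIN2 also without trans-fat/HFCS array 1 (adjusted p up to 0.10 and 0.12, at differences of 2.18 to 2.51 and -2.43 to -2.14). Log2 levels of FST were 6.36 and 6.38 on the combined-diet arrays and 6.92 and 6.88 on the MSG arrays, and those of OSGIN2 were 4.25 and 4.52 on the combined-diet arrays and 4.43 and 4.43 on the MSG arrays. On the 4 arrays without MSG they were 5.94 and 6.27 for FST on the trans-fat/HFCS arrays and 4.34 and 4.24 on the control arrays, and 4.14 and 4.42 for OSGIN2 on the trans-fat/HFCS arrays and 6.65 and 6.57 on the control arrays.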

How the data were processed

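Liver RNA of male cats was hybridised to 8 human whole-transcript arrays, 2 for each of 4 diets. Linear intensity values per probe set were deposited by the authors, 257101 probe sets on each array, and the submitters' processing notes name hg19, Partek and GCRMA without the role of each. Background correction and summarisation are therefore not given in the sources used here beyond these names. No value was at 0, so log2 was taken with no pseudocount.

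Probe sets with 1 gene symbol in the platform annotation and a mean above the median of all (intensity 5.38, log2 2.43) were kept, 111624 in all, and averaged per gene to 17910 genes (median 5 probe sets a gene). A 4-diet model over the 8 arrays was fitted by limma 3.58.1 under R 4.3.3 (4 residual and 5.01 prior degrees of freedom), and contrasts were adjusted by Benjamini-Hochberg over all genes at 0.05. The code was tested on simulated data. With 2 arrays against 2, an exact permutation test cannot go below p = 0.333, so none was used, and the number of arrays limits precision. Arrays of the same number in 2 diets did not deviate together (r = -0.0492 between trans-fat/HFCS and control), so the numbers were not used as pairs.

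The comparison, gene lists and tests were chosen with earlier results of these data known. Genes named were the 12 largest called increases and decreases, the 6 muscle genes with the smallest p, up to 4 members of each list by p, and up to 5 genes in each direction of the difference test. FGFR4, NR1H4, HMGCS1, SREBF1, SCD, MLXIPL, CSAD, MMP8 and the genes said to be chosen afterwards fall outside that rule. Of the genes tested, 75.7% have their symbol in the cat gene table. Alternatives changed the filter, the joining of probe sets, the scale, the normalization, the spread estimate, the genes tested and the arrays.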

Additional observations from a re-analysis of the deposited data

Results flagged for a closer look

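A different trans-fat/HFCS effect in cats without MSG and with MSG, by limma's test of the difference itself, was found for 10 named genes outside the muscle list. Each value is the log2 effect without MSG (trans-fat/HFCS minus control) minus the effect with MSG (combined diet minus MSG). The difference was 2.34 for FST (1.81 without MSG and -0.53 with it, adjusted p = 0.013 in limma). RNF125, a ubiquitin ligase, had 1.84 (1.09 without MSG and -0.75 with it). The phosphatase gene DUSP1 had 2.27 (-0.33 and -2.60), the mitochondrial carrier SLC25A25 had 1.92 (-0.27 and -2.19) and the spindle protein gene SPAG5 had 1.61 (0.27 and -1.33), so for these 3 the larger change was in cats on MSG.

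The difference ran the other way for OSGIN2, at -2.29 (-2.33 without MSG and -0.04 with it), and for HIST1H3H, at -1.85 (-2.01 and -0.16). The oxodicarboxylate carrier SLC25A21 had -2.16 (-1.40 and 0.76), TMEM41A had -3.10 (-0.79 and 2.32) and BEGAIN had -1.99 (-0.34 and 1.65).

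The 6 named muscle genes also differed, at 2.85 for MYH1, 3.21 for MYL1, 3.08 for ACTA1, 2.32 for TPM2, 2.89 for SLN and 2.12 for MYBPC1, with high levels on the trans-fat/HFCS arrays and not on the combined-diet arrays. Leaving out any 1 of the 8 arrays brought the 27 differing genes to between 5 and 20, and each of the 10 genes outside the muscle list missed the threshold without either MSG array.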

How the results depend on the processing

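The count of 444 genes that differed between the trans-fat/HFCS and control diets became 834 with a filter at the 75th percentile, 1120 with the brightest probe set per gene, 180 with the median of probe sets, 1074 with a pseudocount of 16 and 684 with an intensity trend and robust estimation. Leaving out 1 array gave between 62 and 528. The 27 genes whose effect differed with MSG became 14, 56, 5, 82 and 47 under the same 5 settings, 12 with the muscle list left out and between 5 and 20 with 1 array left out. With the replicate number as a block the counts were 299 and 11, and the numbers do not pair the arrays. The other settings stayed within 1.5 times of both counts. Of the 27, 59.3% were positive, against 25% with the brightest probe set, 48.9% with the trend, 41.7% without the muscle list, 72.7% with the block, 77.4% with at least 5 probe sets and 50% without a filter or with the pseudocount.

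Read by the brightest probe set, the direction turned for H19 (0.60), ZNF90 (0.17), MYBPC1 (-0.0023), MX2 (-0.30), CD68 (-0.32), TMPRSS4 (-0.26) and KBTBD6 (0.22). Among named genes that were called, none turned under another setting. Turns of genes called under neither setting were not counted. Of the 24 named liver genes, 10 kept their call with the brightest probe set, 17 without a filter, 19 with the median, 22 with the 75th percentile, 23 with the block and 24 with the pseudocount, quantile normalization, the 4 arrays alone or the trend. The cause of these shifts was not tested. Genes on 1 or 2 probe sets, and levels near the filter, are the least certain, since human probes read cat RNA.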
